A study of Mus musculus with 6 samples.

Results

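Guanylate-binding proteins (GBPs) and immunity-related GTPases (IRGs) were described in mouse lung through 9 genes. They are Gbp2, Gbp3, Gbp5 and Gbp7 among the GBPs, and Irgm1, Irgm2, Igtp, Iigp1 and Ifi47 among the IRGs. The members were taken by gene symbol, and all 9 were found among the 29492 genes listed over the 6 libraries. They had been picked because their levels differed over these same groups, so their levels by group and by cell class are given as a description. Where a count of members passing a fit over all genes is given, it stands beside the share of all genes that did, and nothing is read from it.

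Each library held dissociated lung cells of 1 male C57BL/6J mouse aged 12 weeks. The groups were control mice given PBS, mice given lipopolysaccharide (LPS, a component of the outer membrane of Gram-negative bacteria) at 1 mg/kg, and mice given LPS at 1 mg/kg with Gq activation of the SLC 7 times, called SLC+LPS below. The series title names the subcoeruleus nucleus of the brainstem. There were 2 mice per group, and lungs were taken on day 3. What the PBS and LPS mice received in place of SLC activation, and when the activations took place, is not stated in the labels, so an effect of the activation procedure and of SLC activity cannot be told apart. No group received SLC activation without LPS.

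GBPs and IRGs are large GTPases whose transcription is switched on by interferons, mainly interferon-gamma acting through its receptor, JAK kinases and IRF1. They assemble on the vacuoles of intracellular pathogens, on cytosolic bacteria and on released LPS, and several GBPs promote inflammasome activation and pyroptosis. Among the IRGs, Irgm1, Irgm2 and Igtp are regulators that sit on the cell's own membranes and hold the effector GTPases, such as Iigp1, inactive there. Promoters of interferon-induced genes are known for DNA elements near the start site, among them the gamma-activated site (GAS) and the interferon-stimulated response element (ISRE), which IRFs bind.

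The promoters of the members carried these elements in letters that can be printed. RefSeq promoter windows of assembly GRCm38.p6, from 250 bases before to 50 bases after the start site, were at hand for 8 of the 9 members, all but Iigp1. Gbp3 had 2 windows, so there were 9 windows in all. The ISRE core was searched as GAAANNGAAA and the GAS as TTCNNNGAA, with N any base, on both strands, and matches of one motif could overlap those of the other. An ISRE core match was present in 7 of 9 member windows, of 7 genes, against 3.44% of all 32851 windows in the table. A GAS match was present in 4 of 9 windows, against 8.30%, and both were present in the same 4 windows, those of Gbp5, Gbp7, Igtp and Irgm2, against 0.454%. Neither pattern was found in the Ifi47 window or in the second Gbp3 window, which says only that these letters are not there. The following stretches of 70 bases surround the ISRE core match, read in the direction of transcription, with every match inside the stretch in capitals (TTC at the start and GAA at the end marks a GAS).
Gbp2, chr3:142620564-142620633, plus strand: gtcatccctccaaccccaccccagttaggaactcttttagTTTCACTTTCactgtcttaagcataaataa
Gbp3, chr3:142559959-142560028, plus strand: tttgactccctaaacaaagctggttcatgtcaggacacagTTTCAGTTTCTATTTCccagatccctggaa
Gbp5, chr3:142496729-142496798, plus strand: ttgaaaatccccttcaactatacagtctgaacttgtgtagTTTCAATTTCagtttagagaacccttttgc
Gbp7, chr3:142530243-142530312, plus strand: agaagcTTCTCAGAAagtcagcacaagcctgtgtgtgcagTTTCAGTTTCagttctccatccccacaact
Irgm1, chr11:48871421-48871490, minus strand: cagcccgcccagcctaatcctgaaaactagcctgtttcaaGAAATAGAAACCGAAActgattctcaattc
Irgm2, chr11:58214873-58214942, plus strand: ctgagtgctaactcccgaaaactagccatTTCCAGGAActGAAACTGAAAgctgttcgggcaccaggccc
Igtp, chr11:58199482-58199551, plus strand: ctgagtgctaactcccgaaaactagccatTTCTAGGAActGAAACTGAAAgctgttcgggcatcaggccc
The Igtp and Irgm2 windows shared an unbroken run of 61 bases, which lay downstream of the GAS and ISRE core and held neither. The GAS and ISRE core themselves were spaced alike in both windows. The next longest run shared by any pair, Gbp7 and Gbp3, was 13 bases. The first base of the ISRE core lay 30 to 64 bases before the start site in 6 genes and 165 bases before it in Gbp5, whose GAS matches lay 245 and 52 bases before the start and so outside the stretch. Gbp3 and Irgm1 each held 2 overlapping ISRE core matches. A match is a description of letters, and binding was not measured. In the RefSeq gene order Gbp5, Gbp7, Gbp3, Gbp2b and Gbp2 were neighbours on chromosome 3. Igtp and Irgm2 were adjacent on chromosome 11, where Irgm1 and Ifi47 closed the ends of a separate run of 9 protein-coding genes.

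The libraries were sequenced to 31589233 to 48641470 unique molecular identifiers (UMIs, each counting 1 captured transcript). Between 11887 and 14599 barcodes per library had at least 500 UMIs and were used, with median UMIs of 1128 to 2569. Any pair of libraries shared 1 to 7 of these barcodes. Mitochondrial transcripts made up a median of 9.72% and 8.53% of UMIs in the control libraries and 1.27% to 3.01% in the 4 others. Barcodes were assigned by 17 marker lists that include no member, and 2154 to 4301 barcodes per library stayed unassigned. The 11 classes with at least 20 cells in every library were used, and barcodes of the others (ILC2, platelet, erythroid, mast and basophil) were left out of the class results. The listed markers were highest in their own class for 10 of 10 in neutrophils, 12 of 12 in endothelial cells and 8 of 9 in alveolar macrophages, but only for 5 of 10 in monocytes, so that class is the least certain. Neutrophils held 12.1% and 8.88% of gated UMIs in the controls, 69.0% and 39.5% in LPS, and 55.7% and 71.8% in SLC+LPS. Levels summed over a whole library therefore mix cell numbers with RNA per cell, and fewer cells of a type cannot be told apart from less RNA per cell in them.

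Over whole libraries, all 9 members were higher in both LPS libraries than in both controls, and 8 of 9 in both SLC+LPS libraries. The 2 SLC+LPS mice lay far apart: the first stood near the controls for several genes and the second near the LPS mice. Levels are given as CPM, the UMIs of a gene scaled to a library total of 1000000, in the order first and second mouse, and folds are ratios of group means.

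Gbp2, which coats pathogen vacuoles and bacteria, was at 83.9 and 83.8 CPM in the controls, 1287 and 1143 in LPS, and 296 and 1511 in SLC+LPS. Its mean was 14.5-fold higher in LPS (1215 ± 101 CPM, SD, n = 2, against 83.8 ± 0.117), and the SLC+LPS pair lay on both sides of the LPS pair. Gbp5, a promoter of NLRP3 inflammasome assembly, was at 16.4 and 17.8 CPM in controls, 192 and 348 in LPS, and 49.3 and 221 in SLC+LPS. The SLC+LPS pair was above both controls, and its first mouse was below both LPS mice.

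Gbp7, linked to assembly of the NADPH oxidase, was at 59.2 and 46.1 CPM in controls, 259 and 352 in LPS, and 99.6 and 306 in SLC+LPS. Gbp3, another interferon-induced family member, was at 18.2 and 17.5 CPM in controls, 113 and 164 in LPS, and 30.9 and 83.2 in SLC+LPS. For Gbp3 the 3 groups did not overlap: controls were lowest, SLC+LPS lay between and LPS was highest.

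The 3 regulatory IRGs differed in how SLC+LPS stood to LPS. Irgm1, needed for resistance to mycobacteria, was at 34.2 and 16.4 CPM in controls, 148 and 261 in LPS, and 41.1 and 92.8 in SLC+LPS. Irgm2, a regulator found at the Golgi, was at 33.8 and 28.1 CPM in controls, 80.9 and 159 in LPS, and 37.3 and 75.2 in SLC+LPS. For both genes, as for Gbp3, the SLC+LPS mice lay between the controls and the LPS mice, and the first was close above the controls. Igtp, a regulator at the endoplasmic reticulum, was at 26.0 and 21.9 CPM in controls, 168 and 147 in LPS, and 48.0 and 239 in SLC+LPS. Here the second SLC+LPS mouse was the highest of all 6, and the SLC+LPS range enclosed the LPS range.

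The effector Iigp1, which coats and ruptures parasite vacuoles, was at 57.6 and 38.6 CPM in controls, 101 and 337 in LPS, and 38.4 and 101 in SLC+LPS. It was the exception among the 9 in SLC+LPS, since the first mouse lay just below the lower control. Ifi47, an IRG of the effector group, was at 40.2 and 28.9 CPM in controls, 306 and 381 in LPS, and 95.7 and 403 in SLC+LPS. All treated mice were above the controls for Ifi47, and the second SLC+LPS mouse was again the highest.

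**Figure D1:**
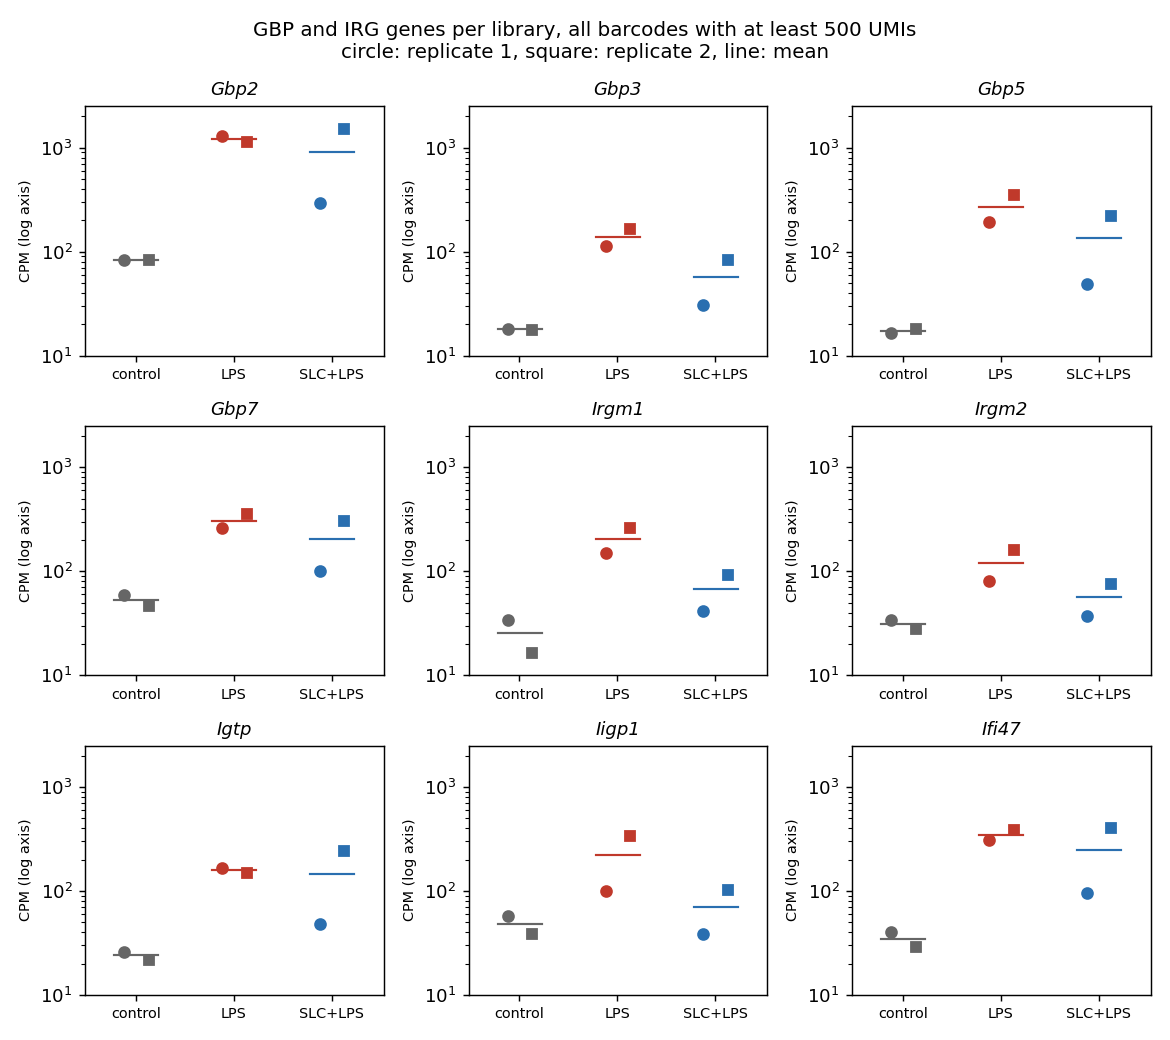
Level of each of the 9 genes per library in CPM on a log axis, by group, over barcodes with at least 500 UMIs. Circles are the first and squares the second mouse, and lines are group means. Controls lie lowest for all genes but Iigp1, whose first SLC+LPS mouse (38.4 CPM) is just below the lower control (38.6), and the SLC+LPS mice are spread 2.02- to 5.11-fold apart.

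Summed over the 9 genes, the levels were 370 and 299 CPM in controls, 2654 and 3291 in LPS, and 736 and 3032 in SLC+LPS. The SLC+LPS mean was 1884 ± 1624 CPM (SD, n = 2) against 2973 ± 451 in LPS, a gap smaller than the SD of the SLC+LPS pair. SLC+LPS and LPS ranges overlapped for 6 of 9 members, and the other 3, Gbp3, Irgm1 and Irgm2, lay lower in both SLC+LPS mice than in both LPS mice. Of all 18110 genes, 10.7% lay lower and 13.4% higher in SLC+LPS without overlap. In the share of all 18110 tested genes lying above both controls without overlap, the background was 15.2% for LPS and 19.5% for SLC+LPS. Since differences between these groups chose the members, nothing is read from their counts against these shares.

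Fitted with edgeR over all genes, 8 of 9 members passed as higher at an adjusted p of 0.05 for LPS against control (4.35% of all genes did) and 6 of 9 for SLC+LPS against control (5.45%). The median log2 fold change of the members was 3.32 and 2.35, against -0.01 for all genes in both. For SLC+LPS against LPS no member and no gene of the 18110 passed (0% of all genes), with 486 genes at an unadjusted p under 0.05 and 16 genes passing in DESeq2. The median log2 difference of the members there was -0.95, with 9 of 9 below 0. These counts describe the contrasts used in the choice and carry no support. The edgeR scaling (TMM) moved the median gene by 0.36 on the log2 scale relative to the CPM ratios in both comparisons with control, so fitted values run above the CPM folds. Without either control library no member passed in either comparison with control, and without the second SLC+LPS library none passed for SLC+LPS against control.

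The gap between the SLC+LPS mice ran one way for every member. The second mouse was higher for 9 of 9 genes, by 2.02-fold (Irgm2) to 5.11-fold (Gbp2), with a median of 3.07-fold. Of all 18110 genes, 2.20% were at least 2-fold higher in the second SLC+LPS mouse on the CPM + 1 scale. The same direction held in 9 of 9 members within neutrophils, alveolar macrophages, monocytes, interstitial macrophages, endothelial cells, fibroblasts and epithelial cells. In T cells it held for 8 of 9 and in NK cells for 6. In B cells it held for 7 and also for Iigp1, and in dendritic cells for 6 and also for Irgm2. Those 2 genes had UMIs in the second SLC+LPS mouse only, so no ratio could be formed. Of all genes tested in a class, 3.55% (neutrophils) to 13.3% (dendritic cells) were at least 2-fold higher in that mouse on the CPM + 1 scale. Classes of a library share its mouse and its free RNA, so they are not separate repeats of the gap. The gap in neutrophils alone was 2.10- to 5.15-fold, so it was as wide within that class as in the whole library. Controls differed by 0.480- to 1.09-fold (second over first mouse) and LPS mice by 0.876- to 3.35-fold.

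Among cell classes, endothelial cells had the highest summed level of the 9 members in every group. The sum was 1785 and 1353 CPM in control endothelial cells, 4602 and 14377 in LPS, and 1088 and 5027 in SLC+LPS. The second LPS mouse was the highest by far and the first SLC+LPS mouse was below both controls. Endothelial barcodes numbered 1542 and 776 in controls, 166 and 730 in LPS, and 299 and 80 in SLC+LPS, so the SLC+LPS values rest on few cells. All 9 members were above both controls in LPS endothelial cells (12.4% of genes tested there), but only 1 of 9 in SLC+LPS (19.6%). That gene was Gbp2, at 237 and 145 CPM in controls, 1238 and 2952 in LPS, and 251 and 1339 in SLC+LPS.

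Irgm1 in endothelial cells was lower in one SLC+LPS mouse than in either control, at 178 and 102 CPM in controls, 263 and 1161 in LPS, and 41.2 and 113 in SLC+LPS. Its SLC+LPS mean was 0.551 of the control mean, the lowest such ratio among the 9 members in that class. Endothelial cells were also where the LPS pair differed in one direction, with 9 of 9 members 1.81- to 4.64-fold higher in the second mouse. In alveolar macrophages and epithelial cells it was the reverse, and all 9 members were lower in the second LPS mouse (0.153 to 0.738 of the first, and 0.103 to 0.738). Of all genes tested in endothelial cells, 9.89% were at least 2-fold higher in the second LPS mouse and 19.2% at least 2-fold lower. In alveolar macrophages 16.3% and in epithelial cells 16.1% of genes were at least 2-fold lower in it (all on the CPM + 1 scale).

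Neutrophils came next in LPS and in SLC+LPS. Their summed level was 358 and 384 CPM in controls, 3428 and 4667 in LPS, and 976 and 3860 in SLC+LPS, so every treated mouse was above the controls. Of gated UMIs of the 9 genes, neutrophils supplied 11.2% and 10.9% in controls, 79.4% and 53.1% in LPS, and 68.8% and 81.5% in SLC+LPS. Within neutrophils 9 of 9 members were above both controls in LPS (21.9% of genes) and 8 of 9 in SLC+LPS (38.3%). Ifi47 had the largest neutrophil fold of means in LPS, 24.4, from 18.5 and 21.3 CPM in controls to 424 and 546, with 141 and 554 in SLC+LPS.

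Alveolar macrophages, the resident phagocytes of the air spaces, summed to 158 and 131 CPM in controls, 2002 and 584 in LPS, and 428 and 1787 in SLC+LPS. The higher mouse of each treated pair had few such cells: 80 in the first LPS mouse against 537 in the second, and 72 in the second SLC+LPS mouse against 338 in the first. All 9 members were above both controls in LPS (15.8%) and in SLC+LPS (21.8%). Interstitial macrophages summed to 280 and 331 CPM in controls, 2122 and 1916 in LPS, and 567 and 2900 in SLC+LPS. These sums were above both controls in every treated mouse, but Gbp5 and Irgm1 taken singly were not in SLC+LPS.

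Monocytes summed to 402 and 345 CPM in controls, 1822 and 2872 in LPS, and 327 and 1952 in SLC+LPS, the first SLC+LPS mouse lying below both controls. T cells went from 394 and 294 CPM in controls to 1152 and 1465 in LPS, and NK cells from 300 and 252 to 959 and 792. SLC+LPS T cells were at 614 and 1445 CPM and NK cells at 726 and 1127, all above the controls. B cells had the lowest mean LPS sum among the classes, 589 and 790.5 CPM, against 168 and 138 in controls and 304 and 725 in SLC+LPS.

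Fibroblasts summed to 299 and 341 CPM in controls, 2544 and 2450 in LPS, and 769 and 2865 in SLC+LPS, and all 9 members were above both controls in LPS (12.4%) and in SLC+LPS (21.1%). Epithelial cells had the lowest control sums, 82.6 and 53.4 CPM, and the widest spread within treated pairs as a ratio: 2168 and 375 in LPS, and 160 and 2081 in SLC+LPS. Only 58 and 188 epithelial barcodes were gated in LPS and 117 and 29 in SLC+LPS. Dendritic cells summed to 99.9 and 104 CPM in controls, 1286 and 1898 in LPS, and 590 and 1043 in SLC+LPS, from 25 to 31 cells in each treated library.

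**Figure D2:**
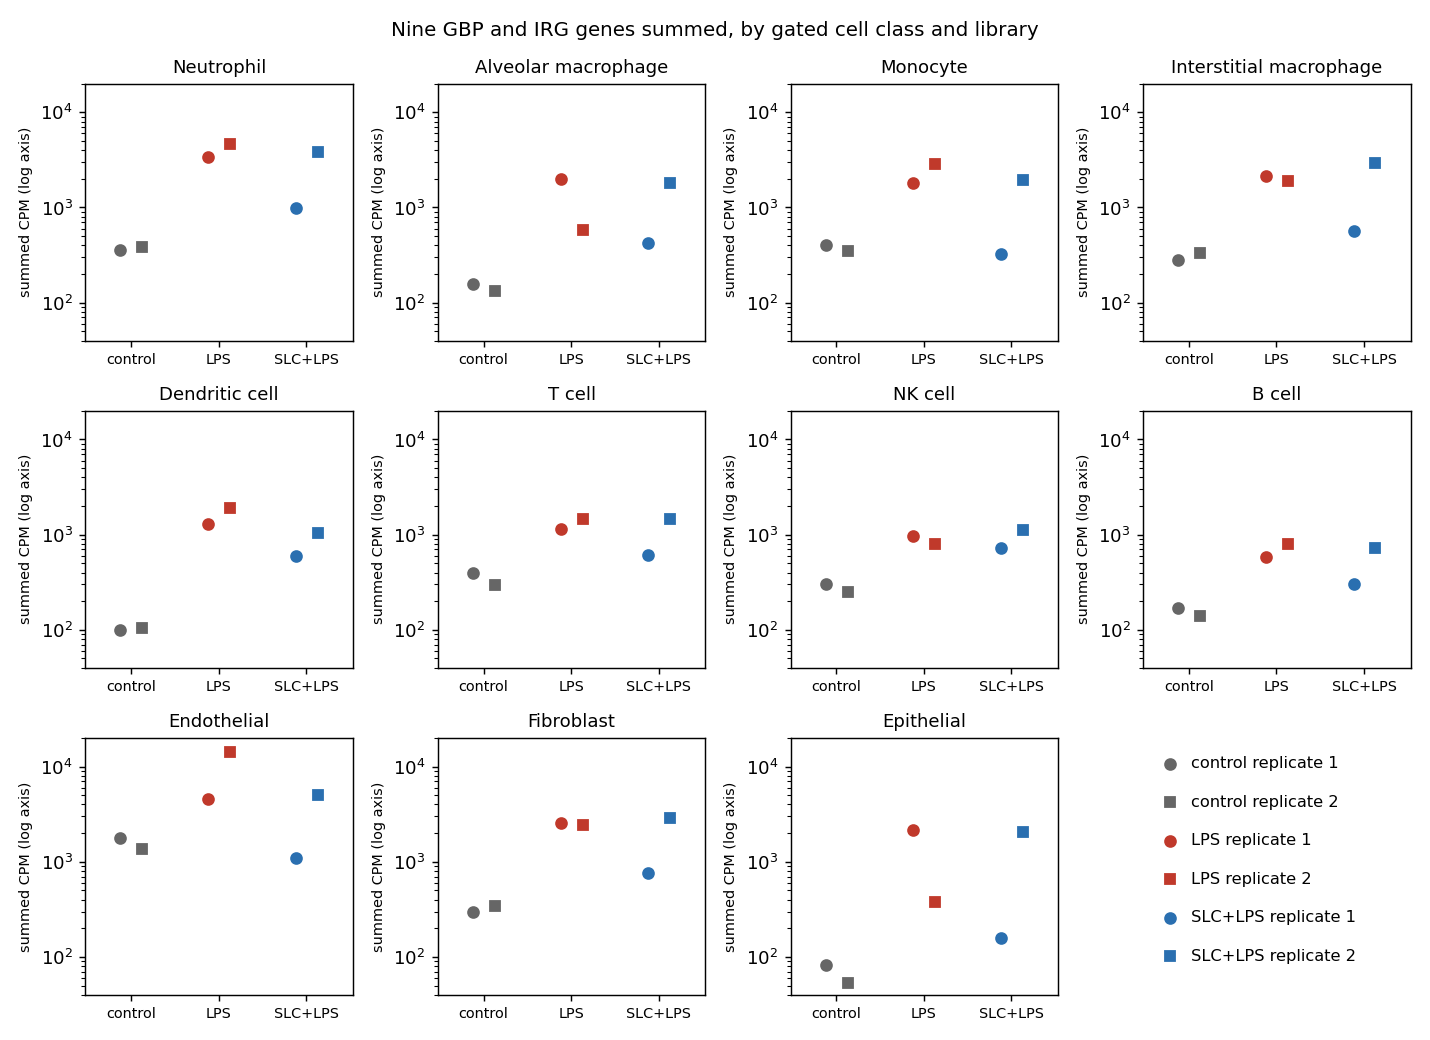
Summed level of the 9 genes in each of 11 gated cell classes, in CPM on a log axis, with one point per library. Endothelial cells are highest in the mean of every group, reaching 14377 CPM in the second LPS mouse, and in 11 of 11 classes the second SLC+LPS mouse lies above the first.

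Iigp1 was high in fibroblasts and endothelial cells and low in neutrophils. In fibroblasts it was at 58.5 and 55.8 CPM in controls, 877 and 1001 in LPS, and 261 and 865 in SLC+LPS, a 16.4-fold higher mean in LPS. In endothelial cells it was at 471 and 391 CPM in controls, 825 and 3826 in LPS, and 197 and 783 in SLC+LPS. Both classes held far more of it than neutrophils, at 7.96 and 5.20 CPM in controls, 23.1 and 50.4 in LPS, and 6.44 and 33.2 in SLC+LPS. Neutrophils supplied 12.6% and 5.54% of gated Iigp1 UMIs in LPS, against 83.9% and 65.3% of those of Gbp2. Fibroblasts held 28.8% and 37.4% of gated UMIs in controls against 7.59% to 11.3% in treated mice, and endothelial cells 8.53% and 4.60% against 0.763% to 5.76%. The part of these shares in the whole-library Iigp1 level was not tested.

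In epithelial cells Iigp1 was at 6.15 and 0.989 CPM in controls, 721 and 74.2 in LPS, and 1.95 and 492 in SLC+LPS. In both LPS mice and the second SLC+LPS mouse the epithelial level was above that of their neutrophils, from 58, 188 and 29 epithelial cells. The free RNA estimate for epithelial cells is given below. In monocytes no Iigp1 UMI was counted in either control, which allows up to 4.35 and 7.28 CPM (3 counts per library, counting error only), while LPS monocytes were at 52.1 and 67.6 CPM. Irgm2 followed Iigp1 in its leading classes, with endothelial cells first and fibroblasts second in each group. In fibroblasts Irgm2 was at 44.5 and 46.2 CPM in controls, 215 and 312 in LPS, and 107 and 210 in SLC+LPS, without overlap between controls and treated mice.

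Gbp5 had a different profile, led by other classes. Monocytes were its leading class in both controls, at 91.5 and 107 CPM, and neutrophils in both mice of LPS and of SLC+LPS. In neutrophils Gbp5 was at 26.4 and 43.5 CPM in controls, 299.5 and 684 in LPS, and 83.9 and 343 in SLC+LPS. Its epithelial level in LPS was low, at 33.5 and 4.05 CPM, but its mean there was 21.3-fold higher than in controls. In SLC+LPS the epithelial mean was 37.25-fold higher than in controls. No Gbp5 UMI was counted in epithelial cells of the second control. Igtp had T cells as its second class in controls and SLC+LPS, at 65.5 and 79.2 CPM in control T cells, 155 and 205.5 in LPS, and 93.7 and 262 in SLC+LPS.

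**Figure D3:**
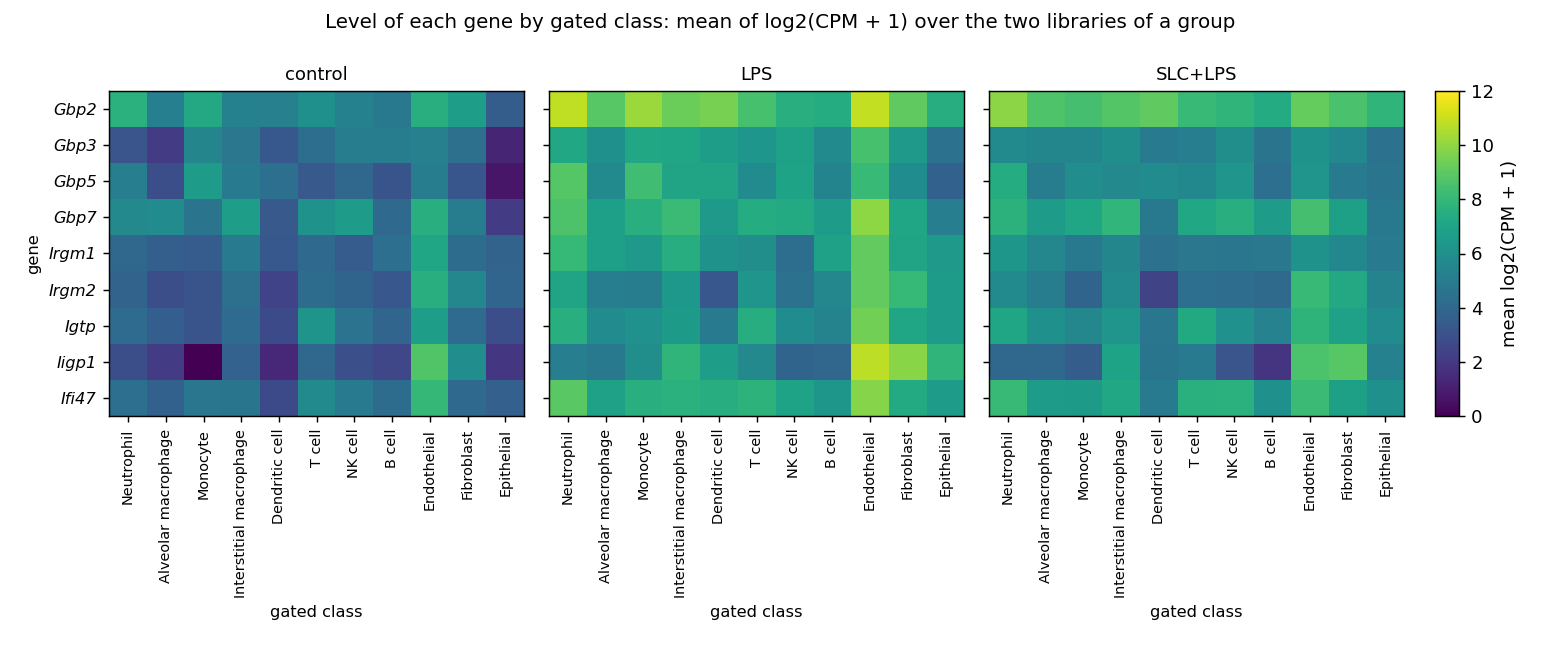
Mean over the 2 libraries of a group of log2(CPM + 1) for each gene (rows) in each gated class (columns), one panel per group. Endothelial cells form the brightest column for most genes, and Iigp1 is bright in endothelial cells and fibroblasts and dark in neutrophils.

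RNA free in the suspension could reach any class. Barcodes with 10 to 100 UMIs, too few for a whole cell, carried the 9 members at 412 and 390 CPM in controls, 1891 and 2570 in LPS, and 661 and 1908 in SLC+LPS. Free RNA was scaled by the lung epithelial transcripts Sftpc, Scgb1a1 and Scgb3a2 found in each class, or by Inmt and Mgp for epithelial cells. Its upper estimate was 8.53% and 11.9% of the endothelial sum in controls, and 1.10% to 28.2% after treatment. For neutrophils the estimate was 61.1% and 41.5% in controls, and 7.14% to 29.0% after treatment. In control alveolar macrophages it reached 95.8% and 100%, and in control dendritic cells 100%, so the control levels of those 2 classes were not above this background. In B cells it was 58.4% or more in 5 of 6 libraries. In epithelial cells, taken over single members and libraries, it ran from 5.57% to 100% with a median of 80.2%.

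Across the 66 sums of 1 class in 1 library, the members varied together. The correlation of each member with the mean of the other 8, on log2(CPM + 1) values, ran from 0.733 (Irgm2) and 0.745 (Iigp1) to 0.886 (Igtp) and 0.929 (Ifi47). The closest pair was Igtp and Ifi47 (Pearson r = 0.91) and the least close Gbp5 and Irgm2 (r = 0.408). Sums from 1 library share its depth, its mouse and its free RNA, so these values are descriptive. Outside the members, genes with the most similar profile among 8712 included Gbp6 (r = 0.869), Parp9 (0.809), B2m (0.799) and Rnf213 (0.789).

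The rest of the interferon pathway was read from lists of 89 genes, of which 85 were expressed enough to test in the whole library. With edgeR's quasi-likelihood test adjusted over 18110 genes, 25 were higher and 1 lower in LPS than in control (4.35% and 4.68% of all genes), with a median log2 fold change of 1.50 against -0.01 for all genes. In SLC+LPS against control 20 were higher and 2 lower (5.45% and 7.60% of all genes, list median 1.23). In SLC+LPS against LPS none passed (median -0.29), 3 were at an unadjusted p under 0.05, and DESeq2 called none. Both comparisons with control share the control libraries, and without either control no pathway gene passed in either. Without the second SLC+LPS library none passed for SLC+LPS against control, and without the first 12 did.

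Among ligands and inducing cytokines, Ifng was at 1.54 and 1.00 CPM in controls, 9.97 and 4.85 in LPS, and 0.499 and 16.3 in SLC+LPS, and did not pass in any comparison (edgeR adjusted p = 0.211 for LPS and 0.164 for SLC+LPS against control). Ifng was lowest in the first and highest in the second SLC+LPS mouse, from 19 and 444 UMIs. Its part in the levels of the members was not tested. In NK cells it was at 23.5 and 15.8 CPM in controls, 232 and 86.6 in LPS, and 112 and 350 in SLC+LPS, from 8 to 160 UMIs, and in T cells it had 8 and 4, 47 and 9, and 0 and 69 UMIs, the 0 allowing up to 8.26 CPM. Il12a, a subunit of interleukin-12, rose in LPS by 3.33 ± 0.35 on the log2 scale (SE, edgeR adjusted p = 0.0163), from 8.47 and 6.04 CPM to 62.0 and 50.8. Ifnb1, the type I interferon, fell by 3.10 ± 0.63 (adjusted p = 0.0369), from 16.8 and 10.4 CPM to 1.41 and 1.03. In SLC+LPS Ifnb1 and Il12b were lower than in control and Il12a higher.

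Of 7 receptors and kinases, Ifngr2 (a chain of the interferon-gamma receptor) rose by 1.38 ± 0.29 (adjusted p = 0.0390) and Ifnar1 by 0.94 ± 0.22 (adjusted p = 0.0487) in LPS, and Ifngr2 alone passed in SLC+LPS. Among transcription factors, Batf2 and Nlrc5, the activator of MHC class I genes, rose in both comparisons and Irf2 in LPS, while Irf1 was at 149.5 and 172 CPM in controls, 245 and 245 in LPS, and 99.8 and 353 in SLC+LPS without passing. Of 6 inhibitors, Usp18 and Ptpn6 rose in both comparisons and Socs1 in SLC+LPS.

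Among the 18 tested GBP and IRG genes outside the members, 3 rose in LPS (Gbp6, Gbp10 and Gm5431) and 2 in SLC+LPS (Gbp6 and Gbp10). Gbp6 was at 5.92 and 6.70 CPM in controls, 82.9 and 146 in LPS, and 20.8 and 127 in SLC+LPS. The GBPs of this group and the pair Tgtp1 and Tgtp2 have near-identical copies, so how their UMIs were split is uncertain. Of 13 other interferon-gamma-induced genes 7 rose in LPS and 6 in SLC+LPS. Cxcl9, a T cell chemokine, was at 5.39 and 8.27 CPM in controls, 417 and 100.4 in LPS, and 107 and 665 in SLC+LPS, a log2 rise of 5.62 ± 1.16 in LPS (edgeR adjusted p = 0.0377). Psmb9 (an immunoproteasome subunit) and Cd274 (encoding PD-L1) rose in both comparisons, by 2.70 ± 0.31 and 2.45 ± 0.30 in LPS.

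Of 8 type I interferon-induced genes, Rsad2 and Cmpk2 rose in LPS and Rsad2 in SLC+LPS. Of 6 inflammasome partners, on which GBPs act, Casp1, Casp4 (the sensor of cytosolic LPS), Nlrp3 and Pycard rose in LPS, and Nlrp3 and Pycard in SLC+LPS. Nlrp3 was at 1405 and 1285 CPM in controls, 2978 and 2333 in LPS, and 3021 and 3142 in SLC+LPS, without the spread between SLC+LPS mice seen for the members. Of 11 genes for ATG8 conjugation, which steers IRGs to vacuoles, and for prenylation, which anchors GBPs, none passed in LPS (1 at an unadjusted p under 0.05, Gabarap, adjusted p = 0.0516) and Gabarap rose in SLC+LPS.

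**Figure D4:**
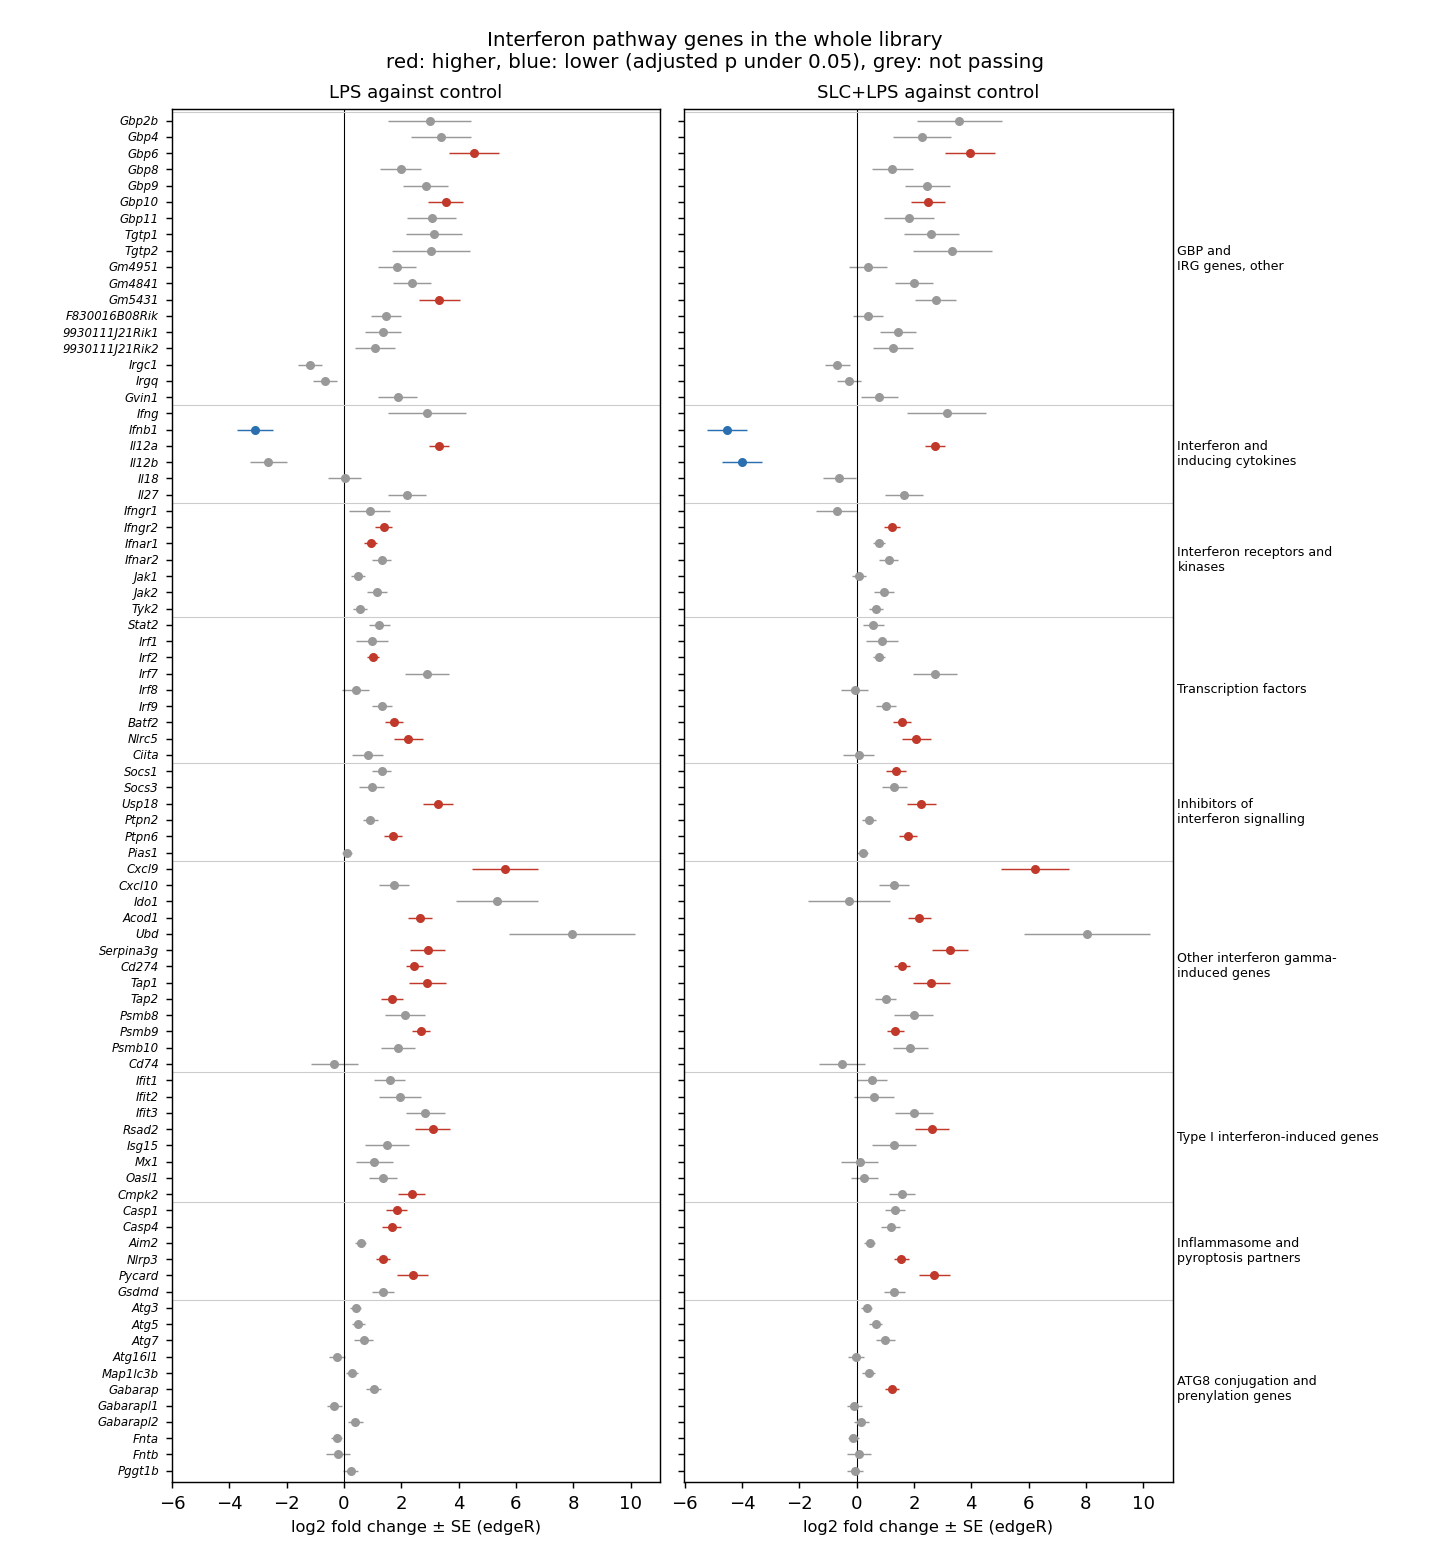
Log2 fold change with its standard error for 84 pathway genes in the whole library, for LPS against control (left) and SLC+LPS against control (right), grouped by list. Red points passed as higher (24 left, 19 right) and blue as lower (1 left, 2 right).

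The gap between the SLC+LPS mice extended to the lists. The second mouse was higher for 72 of 85 genes and at least 2-fold higher on the CPM + 1 scale for 36, against 2.20% of all genes. It was at least 2-fold higher for 8 of 8 type I interferon-induced genes, 8 of 13 other interferon-gamma-induced genes and 6 of 10 transcription factors, and for 0 of 6 inflammasome partners and 0 of 11 ATG8 and prenylation genes. Between the LPS mice 6 of 85 were at least 2-fold higher in the second, against 5.47% of all genes. Median UMIs per barcode were 1421 and 1128 and neutrophils 55.7% and 71.8% of gated UMIs in the SLC+LPS pair, and their part in the gap was not tested.

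Of all genes tested in a class, at most 2.53% passed as higher and 2.84% as lower for LPS against control, in alveolar macrophages. For SLC+LPS against control the largest shares were 2.37% and 2.31%, also in alveolar macrophages. Within cell classes, 714 tests of a list gene gave 37 higher and 2 lower in LPS than in control (edgeR, adjusted within each class). They gave 26 higher and 3 lower in SLC+LPS than in control, and none between SLC+LPS and LPS (4 passed in DESeq2). These counts moved by over 1.5 times when single libraries were left out. For LPS against control (39) they were 9 and 10 without the first and second control, 152 and 74 without the first and second LPS library, and 60 without the second SLC+LPS library. For SLC+LPS against control (29) they were 1 and 6 without the first and second control, 6 without the second SLC+LPS library and 86 without either LPS library. For SLC+LPS against LPS (0) the count was 81 without the first LPS library. Alveolar macrophages gave the most in LPS, 15 higher and 1 lower (2.53% and 2.84% of genes tested there), among the higher ones Rsad2 by 4.12 ± 0.28 and Ifit3 by 4.11 ± 0.37 on the log2 scale (adjusted p = 0.00203 and 0.00365). The lower one was Il12b, at 3.82 and 4.67 CPM in control alveolar macrophages against 2408 and 4012 in control dendritic cells, and the part of free RNA in it was not tested. In neutrophils 12 list genes rose in LPS (1.24% of genes did), including Usp18 by 3.54 ± 0.52 (adjusted p = 0.0164), and 4 in SLC+LPS (1.06%): Cxcl9, Gbp6, Pycard and Socs1. In endothelial cells and fibroblasts, where Iigp1 was highest, no gene of 8629 and 11917 tested passed in any comparison, with 941 and 797 at an unadjusted p under 0.05 for LPS against control.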

How the data were processed

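UMI counts per gene and barcode were deposited by the authors for 6 libraries (2 per group), made with BD Rhapsody and sequenced on DNBSEQ-T7 per the labels' protocols. GRCm39 (mm39) is named in the submitters' processing notes; aligner, counter and cell filter are not given in the sources used here. Genes absent from a library's gene list were taken as 0. Here, barcodes with at least 500 UMIs were kept. A barcode joined a class with at least 3 markers detected and a lead of 2 over any other list. No doublet caller was run, and barcodes with competing lists stayed ungated. Counts were summed per library, and per class and library with at least 20 cells, and tested with edgeR 4.0.16 in R 4.3.3 (TMM, filterByExpr, robust quasi-likelihood, Benjamini-Hochberg over all genes of a fit, adjusted p under 0.05), with all 6 libraries in 1 fit. DESeq2 1.42.0, no low-count filter, a replicate block, stricter barcode filters and leaving out each library were alternatives. The procedure was tested on data simulated with the same spread for every gene and no shift in cell mix. Such a test checks the code and does not bear on the calls made in these libraries. Replicates are separate mice, so p-values measure the spread between these mice.

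The members and lists were chosen with earlier results of these data known. All members are described, and of each list at most 4 genes per comparison, those with the smallest p in the whole library, are named, besides the profile genes, Ifng, Irf1, Tgtp1, Tgtp2 and the class results, chosen after their values were seen. Profile similarity was ranked among genes with a mean of at least 10 CPM. Free RNA bounds take the tracer level of a class over that in barcodes of 10 to 100 UMIs. Same-numbered replicates did not deviate together (correlations 0.0715, -0.136 and -0.195), so numbers do not pair the mice. One pathway gene is not reported here by name.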

Additional observations from a re-analysis of the deposited data

Results flagged for a closer look

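Barcodes with 10 to 100 UMIs, used above as the free RNA background and left out of the tests by group, carried the 9 members above the control level in every treated library. The lowest treated library, the first SLC+LPS mouse, was at 661 CPM, against 412 and 390 CPM in the controls. The other treated libraries were at 1891, 2570 and 1908 CPM. The values rest on 1849 to 8866 UMIs per library.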

How the results depend on the processing

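Numbers of genes passing depended on single libraries and on the tool. For pathway genes in the whole library (26 for LPS and 22 for SLC+LPS against control), DESeq2 gave 55 and 43, the replicate block 4 and 1, and leaving out 1 library 0 to 36 and 0 to 33. In the classes (39 and 29), no low-count filter gave 220 and 139, DESeq2 125 and 87, the block 27 and 19, and leaving out 1 library 9 to 152 and 1 to 86. For SLC+LPS against LPS in the classes (0), no filter gave 29, DESeq2 4 and leaving out 1 library 0 to 81. For the members (8 and 6), no filter gave 3 and 2, the block 2 and 0, and leaving out 1 library 0 to 8 and 0 to 6. The block uses the replicate numbers, for which the labels state no pairing of mice. Swapping the SLC+LPS numbers, an alternative chosen after seeing the data, gave 39 and 31 pathway genes in the whole library and 61 and 47 in the classes. The cause of these shifts was not tested. Member fold changes were above 0 in 108 of 108 alternative values for LPS against control, in 107 of 108 for SLC+LPS against control and in 5 of 108 for SLC+LPS against LPS. Isg15 turned from above to below 0 in SLC+LPS against control without the second SLC+LPS library, its log2 fold changes without 1 library running from -0.00538 to 2.05. Groups of 2 mice and as few as 25 cells per class limit precision.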
